A study of Mus musculus with 2 samples.

Results

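The 10 genes described here are immediate early transcription factor genes, namely Fos, Fosb, Jun, Junb and Jund of the AP-1 family, Egr1 and Egr2 of the early growth response family, and Nr4a1, Nr4a2 and Nr4a3 of the Nr4a family of orphan nuclear receptors. They were chosen by name, and each was found through the array probes whose RefSeq accession carries its symbol, which gave 15 probes for the 10 genes among 22907 named genes on the array. The RNA came from regulatory T cells (Tregs) of mouse kidney, sorted as CD45+CD3e+CD4+FoxP3-hCD2+ cells on day 28 after induction of cGN, a kidney injury set off by antibodies to the basement membrane of the glomerulus (anti-GBM). FoxP3-hCD2 is a reporter that places human CD2 on cells expressing Foxp3. The study used anti-GBM lots M and I because disease severity varied between lots, with 1 single-colour array for each lot, and both arrays share the injury, the sort and the day. Strain, age and the number of mice behind each array are not given in the sources used here.

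Array 2 is recorded under lot M and array 1 under lot I by the scanner output, but the deposited value table carries the values of array 2 under lot I and those of array 1 under lot M. The logarithm of signal over table value had an SD of 0.000189 against the column of the opposite lot on both arrays, and of 0.181 on array 2 and 0.156 on array 1 against the column of the same lot. The arrays are therefore named by number. Every difference is array 2 minus array 1 on the log2 scale, and by the labels of the value table its lot direction turns round. Each lot has 1 array, so there is no replicate check and no test, and differences were read by size, with 2-fold as the limit.

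Immediate early genes are transcribed within minutes of a signal from transcription factors already present in the cell, with no need for new protein. Fos proteins pair with Jun proteins to form AP-1, which binds DNA downstream of mitogen and antigen receptor signals. Egr proteins are zinc finger factors of the same early wave, and Nr4a receptors follow T cell receptor signals and act in Treg development and maintenance. The same genes are known to respond to enzymatic dissociation of tissue, so RNA from cells sorted out of an organ can carry both kinds of response.

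The promoters of these genes were set side by side to describe their sequences, and no link to the differences between the arrays was tested. RefSeq sequences of build GRCm38.p6, each 250 bases before to 50 bases after an annotated start, covered 9 of the 10 genes in 13 windows, 5 of them for Egr2. Egr1 had no window. The 6 printed here all hold the TGACG core described below. They include those of Fos, Fosb and Nr4a3, with the most negative differences, and of Egr2, with the most positive difference. Those of Junb and Nr4a1 come from genes with differences close to 0. Jun and Jund, both at -0.07, were also close to 0, but their windows hold no TGACG and are not printed. The window of Nr4a2, a gene at -0.24, does hold TGACG and is not printed either. Fos lies at chr12:85473640-85473939 on the plus strand, Fosb at chr7:19309996-19310295 on the minus strand, Junb at chr8:84978699-84978998 on the minus strand, Egr2 at chr10:67537619-67537918 on the plus strand, Nr4a1 at chr15:101266596-101266895 on the plus strand and Nr4a3 at chr4:48045055-48045354 on the plus strand. Each runs 5′ to 3′ on the strand of its gene. Capitals mark TGACG on either strand, the core of the cAMP response element that CREB and ATF proteins bind, and in Egr2 also the CArG box, the element that serum response factor binds.
Fos: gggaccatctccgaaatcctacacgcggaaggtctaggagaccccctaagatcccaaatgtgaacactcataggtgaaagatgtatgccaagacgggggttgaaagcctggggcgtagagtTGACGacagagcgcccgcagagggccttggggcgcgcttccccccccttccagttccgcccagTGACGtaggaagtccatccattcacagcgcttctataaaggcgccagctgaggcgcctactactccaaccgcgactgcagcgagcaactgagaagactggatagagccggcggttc
Fosb: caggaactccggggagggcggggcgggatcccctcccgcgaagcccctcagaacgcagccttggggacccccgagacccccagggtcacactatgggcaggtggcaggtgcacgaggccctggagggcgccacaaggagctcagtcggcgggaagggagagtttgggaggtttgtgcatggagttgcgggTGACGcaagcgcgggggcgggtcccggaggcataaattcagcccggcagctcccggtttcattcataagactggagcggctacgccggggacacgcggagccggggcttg
Junb: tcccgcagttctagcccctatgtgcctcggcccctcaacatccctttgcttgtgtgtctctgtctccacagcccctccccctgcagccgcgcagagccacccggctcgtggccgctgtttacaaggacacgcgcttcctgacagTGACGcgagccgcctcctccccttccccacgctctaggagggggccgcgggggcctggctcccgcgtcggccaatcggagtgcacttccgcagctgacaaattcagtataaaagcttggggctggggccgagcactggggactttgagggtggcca
Egr2: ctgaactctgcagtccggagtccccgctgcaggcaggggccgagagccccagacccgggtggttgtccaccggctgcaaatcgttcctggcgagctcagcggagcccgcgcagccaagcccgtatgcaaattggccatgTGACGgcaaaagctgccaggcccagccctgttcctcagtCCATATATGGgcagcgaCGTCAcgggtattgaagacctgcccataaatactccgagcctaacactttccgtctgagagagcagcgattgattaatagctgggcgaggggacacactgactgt
Nr4a1: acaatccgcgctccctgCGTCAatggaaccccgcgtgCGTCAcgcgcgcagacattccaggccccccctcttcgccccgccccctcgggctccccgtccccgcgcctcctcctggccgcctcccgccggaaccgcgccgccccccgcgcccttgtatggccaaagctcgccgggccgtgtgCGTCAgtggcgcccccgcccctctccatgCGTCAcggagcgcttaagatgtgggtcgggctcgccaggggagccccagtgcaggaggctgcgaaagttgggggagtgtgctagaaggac
Nr4a3: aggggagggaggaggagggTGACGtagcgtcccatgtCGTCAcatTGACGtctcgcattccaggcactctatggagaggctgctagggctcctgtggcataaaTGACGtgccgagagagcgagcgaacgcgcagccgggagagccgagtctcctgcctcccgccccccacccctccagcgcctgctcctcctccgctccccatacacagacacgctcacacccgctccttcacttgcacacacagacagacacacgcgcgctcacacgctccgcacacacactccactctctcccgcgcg

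The TGACG core was present in 9 of the 13 windows, covering 7 of the 9 genes, and in 20.8% of all 32851 promoter windows. The Egr2 windows that start at 67537619, 67537620 and 67537680 overlap, so the same 2 copies were counted in each. The windows of the 9 genes had a median GC content of 60.0%, against 52.7% over all windows. Among all windows at or above the lowest GC content of these 13 (46.7%), 24.9% held the core. Fos held 2 copies and Nr4a1, Nr4a2 and Nr4a3 held 4 each. Jun and Jund held none. In Fos the copies began at positions -129 and -66 from the start site, with a TATA box (TATAAA, in 13.6% of all windows) at -33. A CArG box was found in Egr2, in 4 of its 5 windows, and in 1.63% of all windows. The overlapping Egr2 windows share the same box. Egr1, which had no window, was not searched, nor was any sequence outside the windows of the other genes. The Egr site GCGNGGGCG was found in Fosb, Nr4a1 and Nr4a2 and in 5.55% of all windows, and the GC box GGGCGG, which can overlap it, in 7 of the 9 genes and 35.7% of all windows. The full element TGACGTCA, the AP-1 site TGANTCA and the NBRE AAAGGTCA, which Nr4a proteins bind, had no match in these windows and occurred in 1.79%, 7.81% and 1.51% of all windows. Both strands were searched for each motif. A match describes letters in these windows and says nothing of binding.

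**Figure D1:**
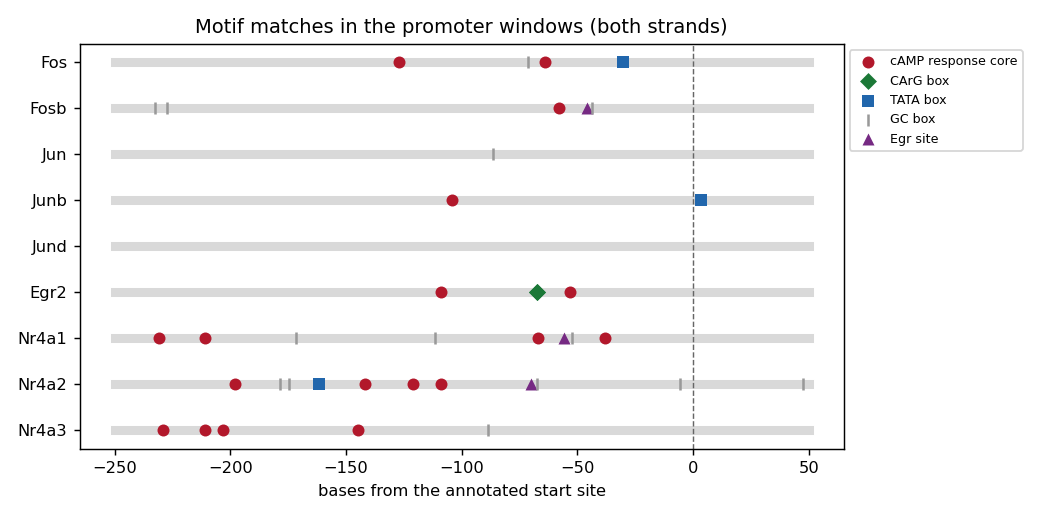
Positions of motif matches on either strand in the promoter windows of 9 genes, in bases from the annotated start site, with 1 symbol for each match (for Egr2, the printed window). The cAMP response core lies in 7 of the 9 genes, with 4 copies each in Nr4a1, Nr4a2 and Nr4a3, and the CArG box in Egr2.

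All 10 genes were measured on both arrays, through 14 of their 15 probes. Across the array, 54.0% of 56605 probes were well above background on array 2 and 54.0% on array 1, and 13740 named genes were measured on both. A level is the log2 of a probe's signal over its own array's 75th percentile, which was a signal of 279.5 on array 2 and 285.6 on array 1, and the detection floor, the lowest level among probes well above background, was -4.58 on array 2 and -4.62 on array 1. Of 13 markers that define T cells and Tregs, 12 had a matched probe and all 12 were measured on both arrays, with levels from 3.20 to 7.92 on array 2 and from 3.21 to 7.86 on array 1. The level of Foxp3, the factor that defines Tregs, was 4.74 on array 2 and 4.92 on array 1. Markers of kidney tubules and macrophages were measured too, so the share of each immediate early transcript that came from Tregs was not determined. In RNA of a cell mixture, fewer cells of a type and less RNA per cell cannot be told apart.

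**Figure D2:**
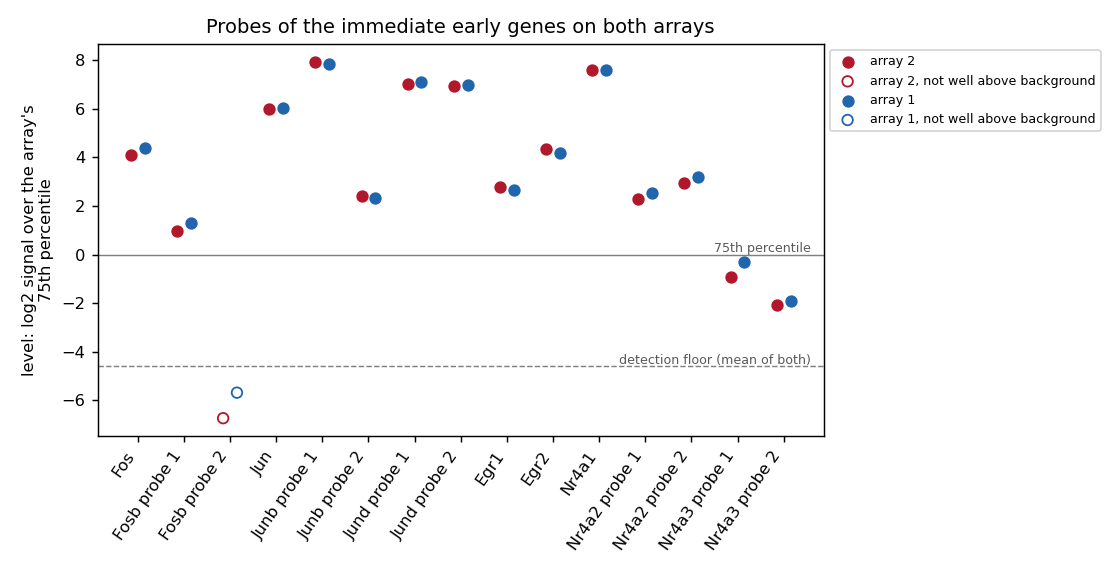
Level of each probe of the 10 genes, as log2 signal over the array's 75th percentile, on array 2 (left of each pair) and array 1 (right of each pair). Filled points are well above background, and the open points are the second Fosb probe, which was below the detection floor on both arrays. The marks of each gene lie close together, and those of Fos, Fosb, Nr4a2 and Nr4a3 sit lower on array 2.

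None of the 10 genes differed by 2-fold between the arrays, where 1.43% of all measured genes did, and in this setting none differed by 1.5-fold, where 5.97% did. Of the 10, 4 were higher on array 2, against 53.8% of all measured genes, and 6 were lower, against 46.2%. Their median difference was -0.07, beside 0.01 over all measured genes. The range ran from -0.40 for Nr4a3 to 0.16 for Egr2. Fos, Fosb, Nr4a2 and Nr4a3 were lower on array 2 by more than their spot error, and the other 6 genes lay within it. A difference over 1 spot error was found in 4 of the 10 genes and in 28.5% of all measured genes, and a difference over 2 spot errors in 1 of the 10 and in 10.2%. The spot error comes from the scanner's error model, where it was a nearly constant share of the signal, at most 10.72% on array 2 and 10.5% on array 1 over the 14 measured probes. It holds no variation between mice or lots, and it is wider than the spread of repeated spots of one probe, whose median SD on the log2 scale was 0.035 on array 2 and 0.037 on array 1.

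**Figure D3:**
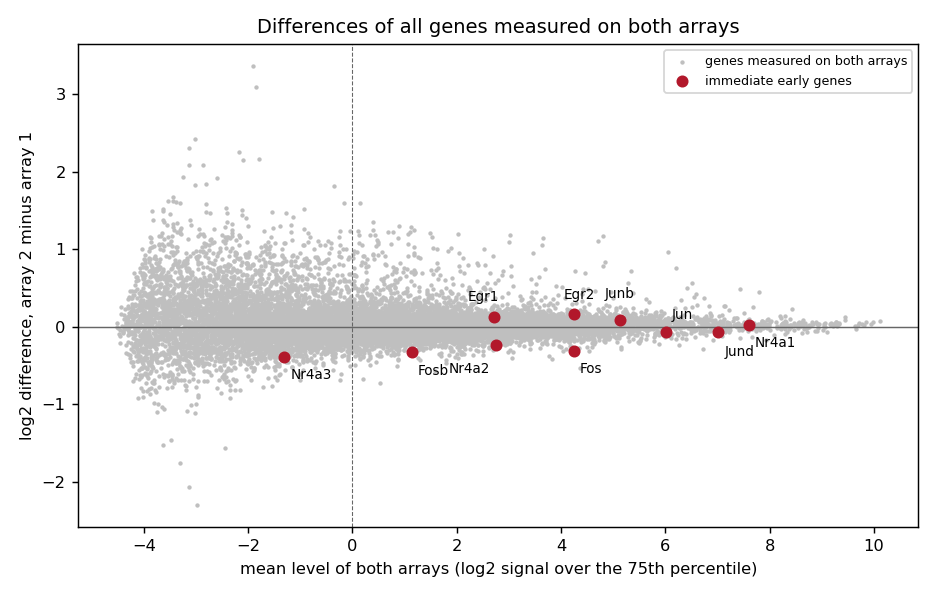
Log2 difference (array 2 minus array 1) against the mean level of both arrays for 13740 genes (grey), with the 10 immediate early genes in red. The cloud is wider below the 75th percentile (dashed line), and Fos, Fosb and Nr4a2 lie along its lower edge while Nr4a1, Jun, Jund and Junb lie near 0.

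Both Fos genes were lower on array 2, in the 11 settings run on the scanner output. Several of these settings leave a gene with 1 probe, such as Fos, unchanged. Fos, the AP-1 partner induced first by most stimuli, had a signal of 4743 on array 2 and 6026 on array 1. The raw median of its spot was 4934 over a local background of 28 on array 2, and 6146 over 29.5 on array 1. After scaling, the difference was -0.31 ± 0.20 (spot error), which is 1.24-fold higher on array 1. Among the 7791 brighter genes, whose level averaged over both arrays exceeded the 75th percentile, 0.821% had a lower difference than Fos, and among all measured genes 4.29%. Fosb, a second Fos family gene with a truncated, stable splice form known from brain, had a signal of 552 on array 2 and 709 on array 1 at its measured probe, a difference of -0.33 ± 0.20, with 0.680% of the brighter genes and 3.99% of all measured genes lower. Its other probe, assigned to the same transcript, gave 2.61 on array 2 and 5.54 on array 1, not well above background on either. Including that probe by dropping the filter moved the Fosb difference to -0.69.

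The Jun genes, which encode the partners of Fos in AP-1, differed little, with differences between -0.07 and 0.08. Jun, which can also pair with itself, had a signal of 17702 on array 2 and 18941 on array 1, a difference of -0.07 ± 0.20. Junb, which pairs with BATF and Fos proteins in T cells and is known to act in Treg effector differentiation, had a signal of 68740 on array 2 and 66027 on array 1 at one probe. Its second probe, on the same transcript, gave 1489 on array 2 and 1438 on array 1. The brightness of the probes lay 5.53 apart on the log2 scale on array 2 and 5.52 on array 1, yet their differences were 0.09 and 0.08. Brightness thus depends on the probe, and levels of different genes are not ranked here. Jund, often described as a steadily expressed Jun gene, had signals of 36158 and 34089 at its probes on array 2 and of 39405 and 36170 on array 1, with differences of -0.09 and -0.05. All of the Jun differences were smaller than their spot errors, and none changed sign in the 11 settings on the scanner output.

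Egr1 and Egr2 were both higher on array 2, within their spot errors, and kept this sign in the 11 settings on the scanner output. Egr1, a zinc finger factor induced through the MAP kinase ERK, had a signal of 1918 on array 2 and 1790 on array 1, a difference of 0.13 ± 0.20. Egr2, which restrains T cell activation and is linked to anergy, had a signal of 5622 on array 2 and 5152 on array 1, a difference of 0.16 ± 0.20. Of those brighter genes, 14.7% had a higher difference than Egr1 and 11.4% a higher one than Egr2. Over all measured genes these shares were 24.0% for Egr1 and 20.6% for Egr2.

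Nr4a2 and Nr4a3 were lower on array 2, while Nr4a1 was within its spot error. Nr4a1, which encodes Nur77 and is widely used as a reporter of T cell receptor signal strength, had a signal of 54590 on array 2 and 54998 on array 1. Its difference was 0.02 ± 0.20 and turned negative with scaling by spike-ins (-0.03) and, by smaller amounts, with no scaling, quantile normalisation and lowess centring. Nr4a2, which encodes Nurr1, was lower on array 2 at both probes, with signals of 1381 and 2146 on array 2 and of 1638 and 2643 on array 1. The differences of these probes were -0.21 and -0.27, and the gene's was -0.24 ± 0.14. Among the brighter genes 2.16% were lower, and among all measured genes 7.23%. Nr4a3, which encodes Nor1, was measured below the 75th percentile, with signals of 147.4 and 65.8 on array 2 and of 228.2 and 76.8 on array 1. Its probes, assigned to different transcript variants, differed by -0.60 ± 0.21 and -0.19 ± 0.22, a gap of 0.41 ± 0.30, and the gene's difference was -0.40 ± 0.15. Of all measured genes, 2.53% were lower. With the brighter probe alone its difference was -0.60. The signs of Nr4a2 and Nr4a3 were the same in the 11 settings on the scanner output. The 3 filters on dim probes and the kept outlier spots left both differences unchanged. Scaling by spike-ins, by the median gene or not at all shifted every gene by a constant smaller than these differences. Signs kept in those settings are thus no separate check.

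**Figure D4:**
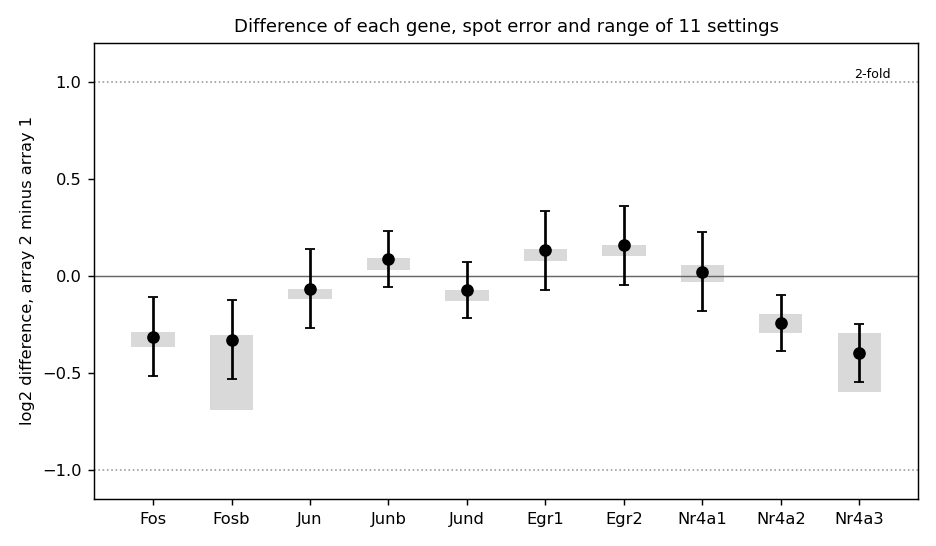
Log2 difference of each gene, array 2 minus array 1 (points), with the spot error (bars) and the range over the main setting and 11 alternatives on the scanner output (grey). Fos, Fosb, Nr4a2 and Nr4a3 lie below 0 by more than the spot error, the other 6 genes lie within it, and the dotted lines of 2-fold are not reached.

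The wider early response network was measured almost completely. Of 82 genes in 7 lists, 79 were measured on both arrays, and 0 of them differed by 2-fold, beside 1.43% of all measured genes. Of the 10 relatives of AP-1, 9 were measured, 4 higher on array 2 (beside 53.8% of all measured genes) and 5 lower. Their median was -0.04 and turned to 0.01 under 1 of the 11 settings. The largest differences were 0.30 ± 0.21 for the small Maf gene Maff and -0.17 ± 0.25 for Batf2. Next came -0.16 ± 0.17 for Fosl2 and -0.09 ± 0.20 for the stress-induced Atf3. Of these, only Maff exceeded its spot error. Fosl1 stayed below background on both. Egr3, a close relative of Egr2, differed by -0.19 ± 0.15, and Nab2, a corepressor of Egr proteins, by 0.06 ± 0.15. Egr4 was well above background on array 2 only, at a level of -4.47, near the floor of -4.58. Against the floor of array 1 it was at least 1.11-fold higher, with no spot error counted. No probe was matched to Nab1.

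Feedback genes, which dampen early signals, were split between the directions. In this list of phosphatases, RNA-decay factors and other dampers, 8 of 13 were higher on array 2 (53.8% of all measured genes were) and 5 lower, with a median of 0.10. Zfp36l2, an RNA-binding protein that promotes decay of AU-rich transcripts, had the largest difference at 0.48 ± 0.20. It was followed by Dusp2 (0.27 ± 0.20), the ERK pathway inhibitor Spry1 (0.22 ± 0.20) and Dusp6, a phosphatase of ERK (0.21 ± 0.20). In the list of other immediate early genes, 11 of 19 were higher on array 2 and 8 lower (median 0.08). The largest were -0.35 for Klf4, 0.35 for Gadd45g, 0.30 for the early activation antigen Cd69 and 0.29 for Myc. Klf4 was thus among the genes lower on array 2 by more than a spot error, whereas Gadd45g, Cd69 and Myc were higher by more than one.

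Upstream of these genes, differences went both ways, beside 53.8% of all measured genes higher on array 2 and 46.2% lower. The list of regulators of immediate early promoters held transcription factors, such as serum response factor, its Elk partners, CREB, NFAT and MEF2, and the histone deacetylase Hdac7. It had a median of -0.03, with 5 of 13 higher on array 2 and 8 lower. In 1 of the 11 settings the sign of the median turned. Srf differed by -0.13 ± 0.20, Crem by -0.11 ± 0.12, Atf1 by -0.09 ± 0.12 and Mef2c by 0.30 ± 0.21. Among 11 kinases the median was -0.002, with 5 higher and 6 lower, and 3 settings turned its sign. Mapk8 and Mapk9, which encode the JNK kinases that phosphorylate Jun, were at -0.29 ± 0.13 and -0.27 ± 0.14, with probes from -0.78 to 0.04 for Mapk8. Map2k7, an activator of JNK, was at 0.33 ± 0.13 over 3 probes that ran from 0.03 to 0.90. Mapk14, which encodes p38 alpha, was at 0.22 ± 0.15.

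Heat shock genes are also induced by tissue dissociation. On array 2, 10 of 12 were higher (median 0.28), beside 53.8% of all measured genes. The largest differences were at Hsph1 (0.70), Dnajb1 (0.38), Hspd1 (0.37) and Dnaja1 (0.33), whose 3 probes ran from -0.05 to 0.56. The 2 that were lower, Hspa1a (-0.24 ± 0.20) and Hspa1b (-0.18 ± 0.20), are near-identical copies whose probes may share signal.

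Markers of other cell types also moved between the arrays, where 53.8% of all measured genes were higher on array 2. Of 12 proximal tubule genes, all were measured, 11 were higher on array 2 and 8 reached 2-fold, where 1.34% of all measured genes were 2-fold higher. Their median was 1.11, and the summed signal was 56683 on array 2 and 28048 on array 1. The androgen-regulated tubular gene Kap stood at a level of 6.54 on array 2, against 5.57 on array 1. The distal nephron list had 9 of 10 genes measured, with a median of 0.42. Its gene Umod stood at 6.79 on array 2 and 6.37 on array 1, while the channel subunit gene Scnn1b stayed below background on both. All 11 macrophage and monocyte genes were measured, with 10 higher on array 2, a median of 0.32 and a summed signal of 22933 on array 2 and 18637 on array 1, and Apoe stood at 4.14 on array 2 and 3.73 on array 1. Endothelial genes had a median of 0.03 over 7 of 9, and Tie1 and Tek were not well above background. Fibroblast and mesangial genes had a median of 0.26 over 4 of 9, which was 0.02 with no filter on dim probes. Pdgfra was well above background on array 1 only and at least 2.36-fold lower on array 2. Col3a1 was well above background on array 2 only, near the floor at -4.34, and at least 1.21-fold higher there. Pdgfrb, Lum and Gata6 were well above background on neither. Neutrophil genes had a median of 0.28 over 3 of 8, whose sign turned with no filter (-0.01) and with another detection flag (-0.04). Mpo was well above background on array 1 only, and its observed level was 2.11-fold lower on array 2 (-4.46 against -3.38), near the floor. Cxcr2, Camp and Ngp were well above background on neither. B and plasma cell genes had a median of -0.11 over 6 of 7, which normexp background correction turned to 0.04. Pax5 was well above background on array 1 only, and its observed level was 1.19-fold lower on array 2 (-4.57 against -4.32), near the floor on both. The T cell markers had a median of 0.005. Fos, Fosb, Nr4a2 and Nr4a3 were the 4 of 10 genes past 1 spot error, beside 28.5% of all measured genes. The lower levels of these 4 genes on array 2 stood beside higher tubular and macrophage markers and T cell markers near 0. The part of these cells in the result was not tested.

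**Figure D5:**
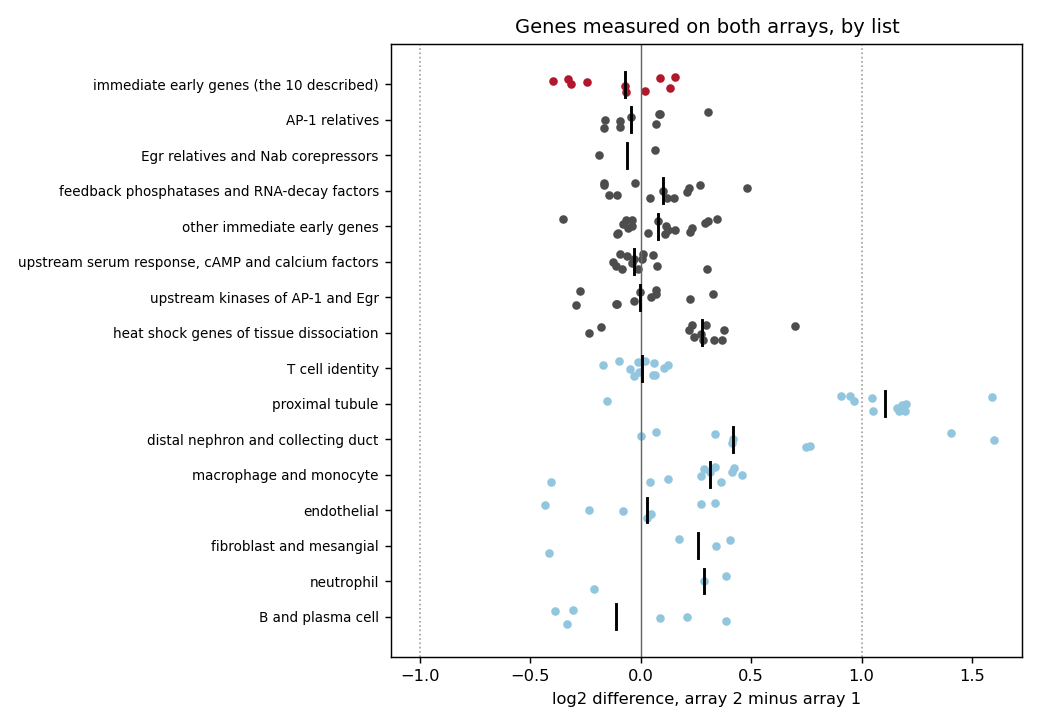
Log2 differences (array 2 minus array 1) of the genes measured on both arrays, by list, with 1 point for each gene and a bar at the median of the list. The 10 immediate early genes (red, median -0.07) lie between -0.40 and 0.16, heat shock genes have a median of 0.28 and proximal tubule genes one of 1.11, and the dotted lines mark 2-fold.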

How the data were processed

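The authors quantified the spots with Agilent Feature Extraction 10.7.1.1, as the submitters' processing notes and the headers state. Per the file headers, the deposited intensity of each spot had its background subtracted and spatial trends removed, with no scaling between arrays. Other deposited columns are flags. The deposited value table holds a linear ratio per probe, made by the authors in a way not given in the sources; set against the scanner output, it equals the processed signal over 1 constant per array.

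Control spots (3671 of 62976) and outlier spots (56 on array 2, 75 on array 1) were left out, no spot was saturated, and spots of one probe were averaged. Log2 signals were reduced by the array's 75th percentile over non-control probes. Names came from RefSeq accessions (GRCm38.p6, used for names and promoter sequences only, since the array files name another build), which gave 1 symbol to 32989 of 56605 probes. A gene's difference averages its probes that passed the detection flag on both arrays, and its spot error combines the scanner's errors of those probes as independent. A gene measured on 1 array only was compared with the higher of the floor and its own level on the other array. Against the floor this gives a lower bound. Against its own level, as for Mpo and Pax5, it gives the observed difference. The steps were tested on simulated data.

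The 10 genes, the lists and the settings were chosen with earlier results of these data known. Named in every case were the 10 genes, and from each pathway list up to 4 genes with the largest differences and those below background; from marker lists, up to 3 bright genes or those near the floor. Foxp3, Hspa1a, Hspa1b and the marker genes measured on 1 array only were chosen outside this rule. No test was run because each lot has 1 array, and this number of arrays limits precision. Scan fields were the same on both arrays. Tools were Python 3.11.15, statsmodels 0.14.6 (lowess) and limma 3.58.1 in R 4.3.3 (normexp).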

Additional observations from a re-analysis of the deposited data

How the results depend on the processing

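At 2-fold, none of the 10 genes was counted in the 12 alternatives to the main setting, and in the main setting the count was also 0 at limits of 1.5-fold and 4-fold. The 10 genes were measured on both arrays in each of the 12. The alternatives were normexp (offset 50), scaling by spike-ins, by the median gene or not at all, quantile normalisation, lowess centring (span 0.3), 3 filters on dim probes (none, 4 times the floor, another flag), the brightest probe, outlier spots kept and the value table. On the scanner output the median of the 10 genes stayed between -0.12 and -0.07 and the number higher on array 2 was 3 or 4. With the value table by its labels these became 0.07 and 6, since its columns stand under the opposite lots, and the medians turned to -0.10 for feedback genes, -0.28 for heat shock genes and -1.11 for proximal tubule genes. Of 120 differences of single genes under an alternative, 110 moved by less than the spot error; of the other 10, 8 were from the value table and the rest were Fosb with no filter (-0.69) and Nr4a3 with the brightest probe (-0.60), both past 1.5-fold. Scaling by spike-ins lowers every difference by 0.05, and scaling by the median gene or not at all also shifts every gene by a constant. For the 5 genes with 1 probe, the 3 filters on dim probes, the brightest probe and the kept outlier spots left the difference unchanged. The filters and the kept outlier spots also left Junb, Jund, Nr4a2 and Nr4a3 unchanged. Signs kept where a difference did not change are thus no separate check. Normexp left 28 genes at 2-fold higher on array 2, against 184, and 0 lower, against 12. No filter gave 648 and 399, another flag 440 and 229, and the stricter filter 84 and 1. No paired analysis was possible because each lot has 1 array, and no array could be left out. Signal over background limits Nr4a3 most, whose dimmer probe had a signal of 65.8 on array 2 and 76.8 on array 1.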
